A study of Mus musculus with 2 samples.

Results

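The respiratory chain genes of the newborn mouse ovary were examined by genome of origin and by enzyme complex. Members were chosen by symbol alone. The symbols begin with mt-Nd, mt-Co, mt-Atp or mt-Cytb for the genes of mitochondrial DNA (mtDNA), and with Ndufa, Ndufb, Ndufc, Ndufs or Ndufv and a number, Uqcr, Cox4 to Cox8 or Atp5, or are Sdha to Sdhd, for those of the nucleus. Pseudogenes were left out. The rule gave 97 of the 31057 genes listed, 84 encoded in the nucleus and 13 in mtDNA. Complex I held 37 nuclear and 7 mtDNA genes, complex II held 4 nuclear genes, complex III held 8 and 1, complex IV held 18 and 3, and complex V held 17 and 2. Atp5o was listed under 2 identifiers, 1 of which had no count, so that the 97 entries carried 96 symbols. Ndufa4 and Ndufa4l2 were grouped with complex I by symbol, although the Ndufa4 protein is now known as a part of complex IV.

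The data were 2 single-cell libraries of whole ovaries from untreated female CD1 mice at postnatal day 2. Each library pooled 6 ovaries of 3 pups from 1 mother, dissociated with collagenase IV and Accumax, and the polyadenylated RNA was captured in droplets and counted as unique molecular identifiers (UMIs). The sample labels name version 2 of the 3′ kit and the methods version 3. No treatment was compared, so every comparison is between cell types of the same 2 libraries.

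Replicate 1 held 4094 barcodes with 54471790 UMIs and replicate 2 held 4847 with 59074480, and 21 barcode sequences occurred in both. After removal of called doublets, of cells under 500 genes and of those over 10% mitochondrial UMIs, cells were assigned by marker gates of at least 2 UMIs and 2 UMIs per 10000. The gates were Ddx4, Dazl and Ooep for germ cells, Foxl2, Fst and Wnt6 for granulosa cells, Col1a2 and Dcn for interstitial cells and Upk3b for mesothelial cells. A cell past 1 gate only was used. This left 229 and 575 germ cells, 1539 and 526 granulosa cells, 1188 and 1969 interstitial cells, and 9 and 18 mesothelial cells in replicates 1 and 2. The 5 further markers checked for each type were highest in their own type in both libraries for 5 of 5 germ, interstitial and mesothelial markers and for 3 of 5 granulosa markers. The granulosa gate also held summed mesothelial markers (5 genes, none at 0) at 494 and 1101 of 1000000 UMIs, against 3643 and 3599 in the mesothelial gate. Haemoglobin and Alas2 transcripts, markers of red blood cells, reached 913 of 1000000 UMIs in granulosa and 1939 in interstitial cells of replicate 2, against 145 and 28.3 in replicate 1. Their part in the results was not tested. The mesothelial gate was small because most Upk3b cells also passed another gate, 140 of 161 and 207 of 252 the granulosa gate among them. With the Upk3b gate given precedence over the other somatic gates, a choice made after seeing the data, it held 160 and 236 cells, and the mesothelial sums, counts and leading gene are given both ways.

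Complexes I to IV pass electrons from NADH and succinate to oxygen, and complex V, the ATP synthase, uses the resulting proton gradient to make ATP. Complex II is encoded wholly in the nucleus, while the other complexes combine subunits of both genomes, and mtDNA is transcribed as long precursors that are cut into single messengers. Several nuclear subunits of complex IV exist as paralogs that are used in particular tissues, among them muscle, lung and testis. Mitochondria are inherited through the oocyte, which accumulates them as it grows.

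Germ cells carried the highest level of nuclear respiratory chain transcripts and a low level of the mtDNA ones. Levels are given as CPM, the UMIs of a gene for every 1000000 UMIs of that cell type and library. Each UMI marks the 3′ end of a messenger, so levels of different genes are set side by side with no correction for length. The 84 nuclear genes summed to 50705 and 51201 CPM in germ cells of replicates 1 and 2. They summed to 30351 and 32150 in granulosa cells, to 27853 and 26322 in interstitial cells, and to 35263 and 34947 in mesothelial cells. The germ sums stood 1.67 and 1.59 times above the granulosa sums and 1.82 and 1.95 times above the interstitial sums, and the libraries of the 4 types did not overlap.

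The order of the types was different for the 13 mtDNA genes. Granulosa cells held 43261 and 49124 CPM and mesothelial cells 40805 and 39601. Germ cells held 25517 and 26516, and interstitial cells 23834 and 24931. Germ and interstitial cells thus lay next to each other at the low end, 26016 ± 706 and 24382 ± 776 (SD, n = 2 libraries), and granulosa and mesothelial cells at the high end, where the granulosa libraries differed by more from each other than the lower of them from the mesothelial libraries. With the Upk3b gate given precedence, mesothelial cells held 39388 and 38096 CPM of the mtDNA genes and 35299 and 35635 of the nuclear genes. With every cell weighing the same, the order of the lowest types turned, with 23684 in germ and 25032 in interstitial cells. With 2 libraries a type, these sums were not tested.

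**Figure D1:**
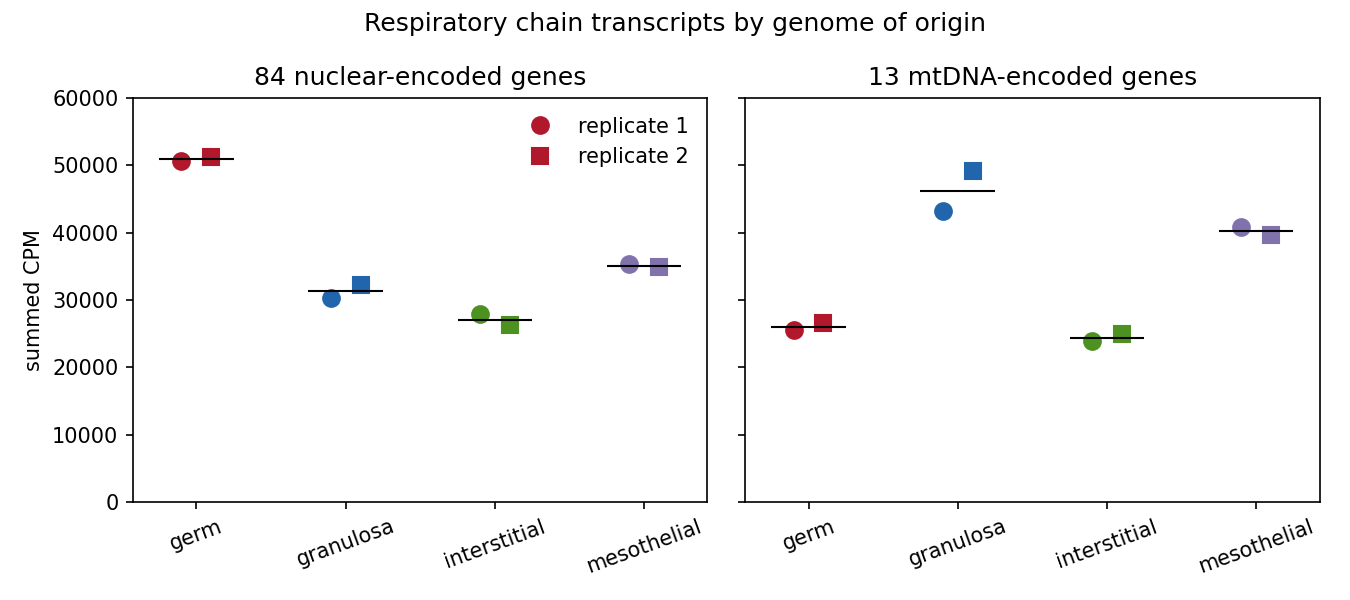
Summed CPM of the 84 nuclear-encoded genes (left) and the 13 mtDNA-encoded genes (right) in each gated cell type. Circles are replicate 1, squares replicate 2 and lines the mean; germ cells lie at 50705 and 51201 on the left and at 25517 and 26516 on the right, where granulosa cells lie at 43261 and 49124.

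The ratio of mtDNA to nuclear respiratory chain UMIs was 0.503 and 0.518 in germ cells, 0.856 and 0.947 in interstitial cells, 1.16 and 1.13 in mesothelial cells and 1.43 and 1.53 in granulosa cells. No 2 types overlapped in this ratio, which does not depend on the total used for scaling. For the subunits of complex I the ratio was 0.249 and 0.233 in germ cells against 0.934 and 0.882 in granulosa cells. For complex IV it was 0.708 and 0.733 against 2.53 and 2.72. Germ cells had the lowest ratio in complexes I, III, IV and V alike.

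Germ cells were also much larger sources of RNA. The median germ cell held 3826 and 2408 UMIs of the nuclear genes and 1932 and 1327 of the mtDNA genes. The median granulosa cell held 318 and 328 of the nuclear and 423 and 470 of the mtDNA genes. By the median, both kinds of transcript were more numerous in a germ cell, while mtDNA had the lower share of its UMIs. This did not hold for every germ cell, as the 20 and 193 germ cells with under 10000 UMIs had medians of 120 and 105 nuclear and 9 and 17 mtDNA UMIs.

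Gene by gene, the germ cell sums were compared with the mean of the other 3 types in edgeR, with 14849 genes tested, 95 of the 97 members among them. The entry of Atp5o with no count and Cox8b did not pass the filter on low counts. Of the 82 nuclear members tested, 64 were higher in germ cells, 2 were lower and 16 were not called. This was 78% higher, against 39% of all genes tested called higher and 24.5% called lower. The median log2 difference of the nuclear members was 0.89 (0.85 without 3 members that were at 0 in a whole cell type), and that of all genes was 0.36. Of the 13 mtDNA genes none was called higher and 6 were lower, with a median of -0.33. With the replicate as a block, 64 members were again higher and 13 in place of 8 were lower. The 4 comparisons of a type with the other 3 share the same 8 sums and are not independent. In each library taken alone, all 64 and all 8 of the called members lay on the same side. The calls were made from these same libraries, so this is no separate support for them.

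**Figure D2:**
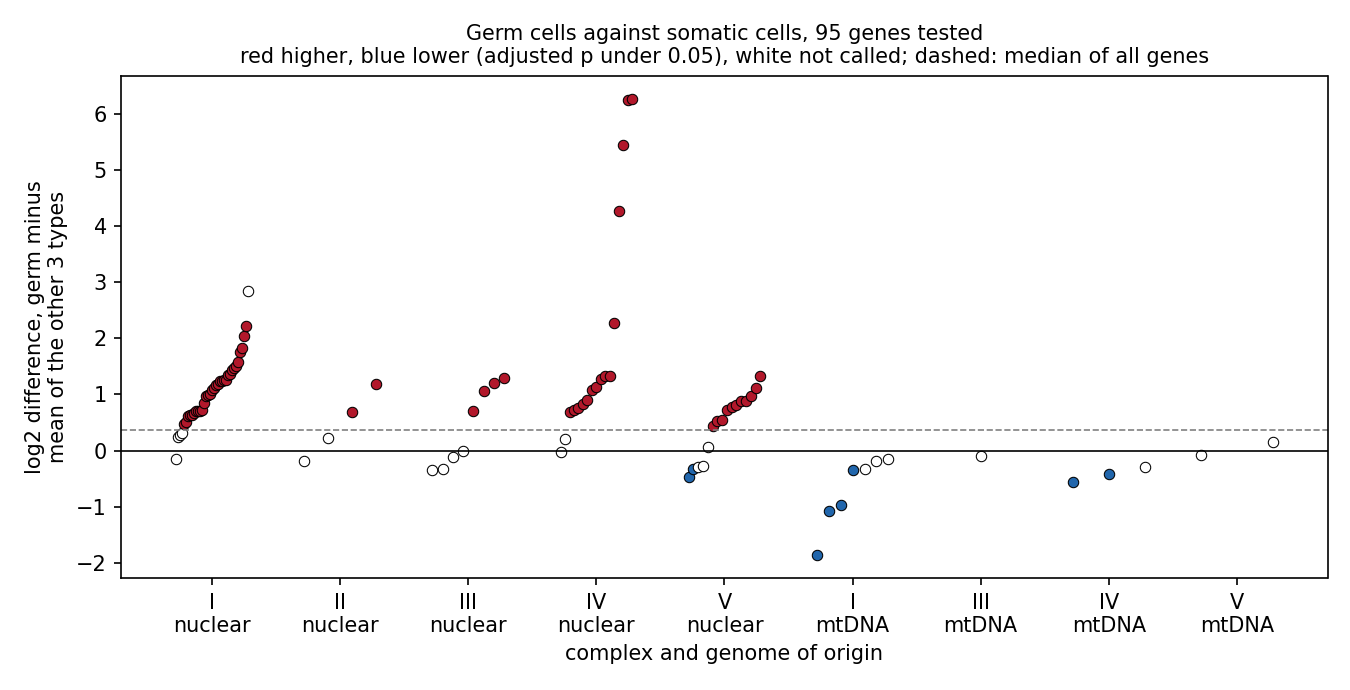
Fitted log2 difference of germ cells from the mean of the other 3 types for the 95 genes tested, by complex and genome of origin, each point 1 gene. Filled points were called (red higher, blue lower), white points were not, and the dashed line is the median of all 14849 genes; in complex IV, 15 of 17 nuclear genes were higher, while 6 of the 13 mtDNA genes were lower. The point of Ndufa4l2 (white, complex I) and those of Cox7b2 and Cox6a2 (complex IV) rest on a type with no count.

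The complexes differed in how many of their nuclear genes were higher. In complex I, 32 of 37 were higher and none was lower, with a median log2 difference of 1.08. In complex IV, 15 of the 17 tested were higher, with a median of 1.14. In complex II, 2 of 4 were higher, with a median of 0.46, and in complex III 4 of 8, with a median of 0.35. In complex V 11 of the 16 tested were higher and 2 lower, with a median of 0.63. Of all genes tested 39% were called higher, and their median was 0.36, so complexes II and III lay near it. The tests behind these counts share 8 sums of cells, and the complexes were not tested against each other.

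Ndufa1, an accessory subunit of the membrane arm of complex I encoded on the X chromosome (chrX:37187588-37191163, GRCm38), led that complex. Its level was 808 and 734 CPM in germ cells, 164 and 171 in granulosa, 163 and 138 in interstitial and 170 and 256 in mesothelial cells. Both germ libraries were above all 6 somatic sums, and the log2 difference was 2.22 (edgeR adjusted p = 6.31e-08). Ndufa9, an accessory subunit near the quinone site (chr6:126821721-126849136), had 315 and 324 in germ cells and between 70.4 and 108 in the other sums. It was lower in granulosa cells than in the mean of the other types, with a log2 difference of -0.93 (edgeR adjusted p = 0.000843). The 3 nuclear members on the X chromosome, Ndufa1, Ndufb11 and Cox7b, were all higher in germ cells, with a median log2 difference of 1.58. The median was 0.85 for the other 79 nuclear members and 0.42 for the 526 genes of the X chromosome that were tested.

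Sdhb, the iron-sulphur subunit of complex II, was at 421 and 434 CPM in germ cells, 173 and 168 in granulosa cells, 212 and 194 in interstitial cells and 224 and 249 in mesothelial cells. It was higher in germ cells (log2 difference 1.18, edgeR adjusted p = 5.46e-06) and lower in granulosa cells (-0.70, edgeR adjusted p = 0.00233). Sdhc, a membrane anchor, was higher in germ cells as well, by 0.69. Sdha, the flavoprotein that forms the catalytic unit with Sdhb, had 110 and 111 in germ cells against 123 to 152 elsewhere and was not called in any type. Sdhd, the other anchor, was not called either. Sdhb thus made up 48.8% and 48.9% of the complex II transcripts in germ cells and between 30.9% and 38.5% in the somatic types, while the share of Sdha was 12.8% and 12.4% against 17.1% to 26.2%.

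In complex III, Uqcrq, a small subunit that contributes to quinone binding, was higher in germ cells by a log2 difference of 1.29 (edgeR adjusted p = 1.92e-06). Its levels were 1053 and 995 CPM in germ cells and 263 to 645 elsewhere. Uqcr11, the smallest subunit, stood lowest in interstitial cells. It had 778 and 737 in germ, 401 and 419 in granulosa, 654 and 424 in mesothelial and 207 and 182 in interstitial cells, where its log2 difference was -1.45 (edgeR adjusted p = 2.55e-05).

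Under the main gates, complex V was the complex with nuclear members called lower in germ cells. Atp5c1, the gamma subunit that turns within the catalytic head, had 308 and 347 CPM in germ cells, 445 and 478 in granulosa, 508 and 538 in interstitial and 483 and 457 in mesothelial cells. Both germ libraries lay below all 6 others, with a log2 difference of -0.47 (edgeR adjusted p = 0.00924). The other was Atp5j, the stalk's coupling factor 6, with -0.33 (edgeR adjusted p = 0.0418). With the Upk3b gate given precedence, 3 nuclear members of complex V and 2 of complex III were called lower in germ cells. Atp5c1 was also the nuclear complex V member called higher in interstitial cells, by 0.38 (edgeR adjusted p = 0.0372), a call lost when the mitochondrial limit was set at 5%. Among the called, Atp5s, a coupling factor rather than a core subunit, had the largest increase in germ cells, 1.33 (edgeR adjusted p = 0.00322), at the low levels of 19.6 and 19.3. Atp5s had 13.6 and 14.1 CPM in granulosa and 11.2 and 9.79 in interstitial cells, and its call was lost after thinning to 2000 UMIs. The mesothelial sums, where 3 UMIs amount to 26.9 and 20.2 CPM, cannot resolve such levels, and the fitted difference of Atp5s rests in part on them. With the Upk3b gate given precedence its difference was 0.94, and Atp5f1 led the complex with 1.03.

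The 3 genes Atp5g1, Atp5g2 and Atp5g3 encode the same mature c subunit of the membrane rotor and differ in the leader that directs import. In germ cells Atp5g3 made up 12.1% and 12.4% of their joint UMIs, against 28.5% and 25.1% in granulosa, 23.5% and 24.3% in interstitial and 19.3% and 19.4% in mesothelial cells. Atp5g1 and Atp5g2 were higher in germ cells by log2 differences of 0.78 and 0.88 (edgeR adjusted p = 0.000483 and 3.86e-05). Atp5g3 was higher in granulosa cells by 0.54 (edgeR adjusted p = 0.00466), at 480 and 472 CPM against 287 to 390 elsewhere. In germ cells its difference of -0.27 did not pass the threshold.

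Most of the tissue-restricted forms of complex IV had their highest level in germ cells. Cox4i2 (chr2:152754173-152765037), the alternative form of the regulatory subunit 4 known from lung and from oxygen sensing, had 621 and 509 CPM in germ cells. It had 4.12 and 9.2 in granulosa cells, 22.4 and 16.8 in interstitial cells, and 0 and 1 UMIs in the mesothelial sums. The germ libraries were 27.7 and 30.4 times above the interstitial libraries of the same number (edgeR adjusted p = 5.64e-09 against the mean of the other types). At least 1 UMI was held by 93.9% and 83.1% of germ cells, at median depths of 77518 and 46191 UMIs, and by 4.61% and 11% of granulosa cells, at 9978 and 10043.5. The general form Cox4i1 was at 2763 and 2817 in germ cells and between 1262 and 1560 elsewhere. Cox4i2 was then 18.3% and 15.3% of the Cox4i transcripts in germ cells and at most 1.75% in the sums of the other types. Within the interstitial sums, the cells with perivascular markers described below held 338 and 195 CPM of Cox4i2 beside 1520 and 1614 of Cox4i1.

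Free RNA in the droplets can add to such values, and its part was not tested. The 8 germ markers Ddx4, Dazl, Ooep, Zp3, Figla, Nobox, Sycp3 and Gdf9 reached between 0.336% and 2.17% of their germ level in granulosa and interstitial cells. The top of that range was Ddx4 in granulosa cells of replicate 2. Ddx4, Dazl and Ooep formed the germ gate, so their levels in the somatic types were limited by the gating itself. Cox4i2 in granulosa cells was at 0.663% and 1.81% of its germ level. The value of replicate 2 lay above every level of Zp3, Figla, Nobox, Sycp3 and Gdf9 in granulosa and interstitial cells. The value of replicate 1 lay within the range of these ungated markers over both libraries. In interstitial cells Cox4i2 stood above all 8 markers, at 3.61% and 3.29%.

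Cox6b2 (chr7:4751792-4753094), the form of subunit 6b known from testis, was also counted in the somatic types. It had 413 and 429 CPM in germ cells, 33.6 and 68.4 in granulosa, 90.8 and 98.4 in interstitial and 152 and 182 in mesothelial cells. The somatic values were 8.14% to 42.3% of the germ level and so above the level of the germ markers. The log2 difference was 2.27 in germ cells (edgeR adjusted p = 1.70e-06) and -1.91 in granulosa cells (edgeR adjusted p = 0.00016). Cox6b1, the general form, was still the more abundant in germ cells, at 880 and 980, and Cox6b2 was 31.9% and 30.5% of the pair there.

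Other restricted forms were rare. Cox8c (chr12:102899316-102900526), a testis form of subunit 8, had 35.7 and 23.9 CPM in germ cells from 580 and 551 UMIs, and 1 to 7 UMIs in each granulosa and interstitial sum (edgeR adjusted p = 4.12e-08 in germ cells). Cox7b2 (chr5:71442824-71548205), a testis form of subunit 7b, had 15.4 and 16.5 in germ cells and 0.701 to 1.14 in granulosa and interstitial cells (edgeR adjusted p = 1.76e-06). Cox6a2, the form of subunit 6a of heart and skeletal muscle, had 80 and 74 UMIs in germ cells, 4.92 and 3.21 CPM, and none in either interstitial sum (edgeR adjusted p = 9.48e-05 in germ cells). Cox8b, the form of subunit 8 of muscle and brown fat, had between 0 and 11 UMIs in each sum and was not tested. For these genes no fitted difference is given, since a mesothelial or interstitial sum was at or near 0 and 3 UMIs in the mesothelial sums already amount to 26.9 and 20.2 CPM. Beside the general forms they were small shares in germ cells, 4.14% and 2.4% for Cox8c and 2.19% and 2.16% for Cox7b2. Of the general forms, Cox6a1, Cox7a2 and Cox7b were higher in germ cells, by log2 differences of 0.73, 0.90 and 1.14 (edgeR adjusted p = 0.00051, 3.81e-05 and 1.58e-05). Cox8a was not (difference -0.03, edgeR adjusted p = 0.924). It had 825 and 972 CPM in germ cells, 909 and 1071 in granulosa, 726 and 696 in interstitial and 1325 and 1372 in mesothelial cells. In interstitial cells it was lower, by -0.53 (edgeR adjusted p = 0.0105), a call lost after thinning to 2000 UMIs.

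**Figure D3:**
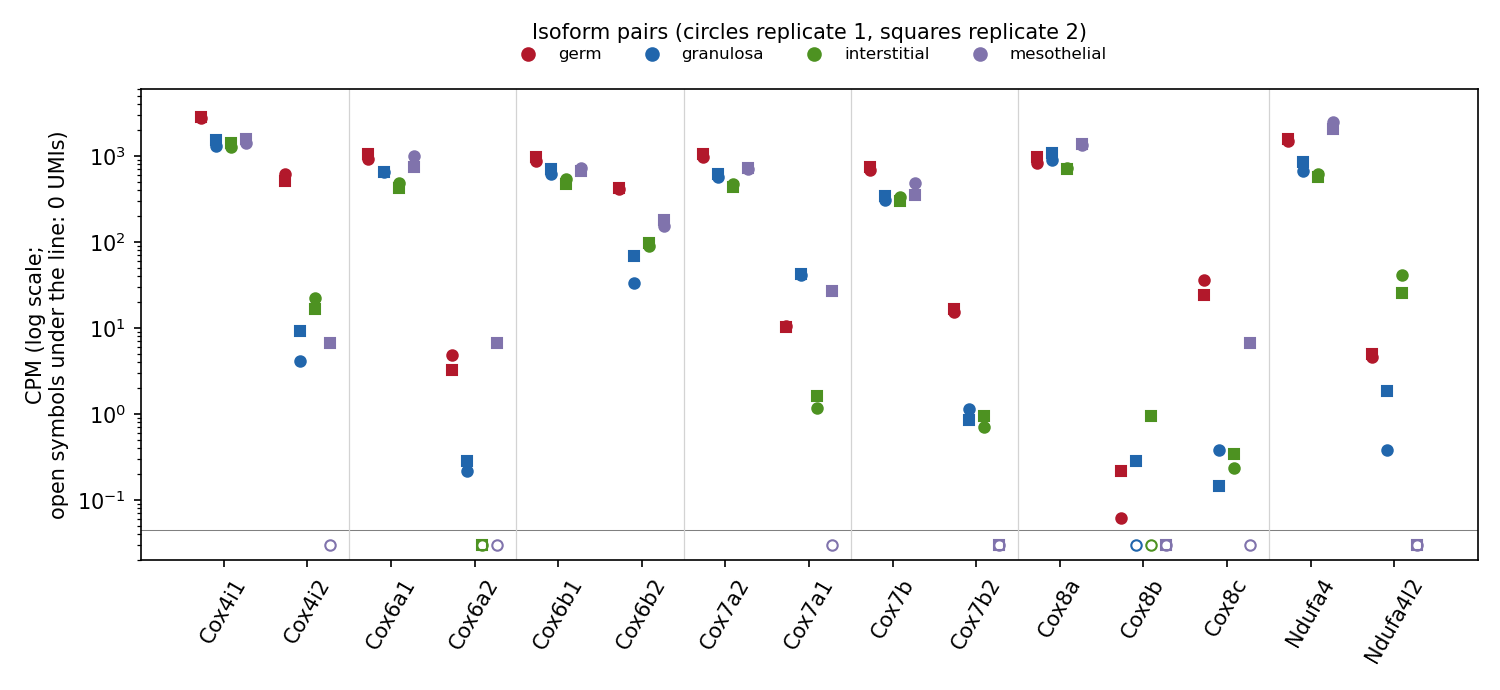
CPM (log axis) of general and restricted forms of complex IV subunits and of Ndufa4 in each gated cell type; circles are replicate 1, squares replicate 2, and open symbols under the line stand for 0 UMIs. Germ cells lead for Cox4i2, Cox6b2, Cox7b2 and Cox8c, granulosa cells for Cox7a1 and interstitial cells for Ndufa4l2.

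A further restricted form had its highest level in granulosa cells. Cox7a1 (chr7:30184144-30186078), the form of subunit 7a of heart and skeletal muscle, had 41.6 and 42.1 CPM in granulosa cells and 10.5 and 10.3 in germ cells. It had 1.17 and 1.63 in interstitial cells, and 0 and 4 UMIs in the mesothelial sums. The 2 granulosa libraries were the highest of the 8, with a log2 difference of 2.76 (edgeR adjusted p = 7.10e-06). A UMI was held by 32.1% and 32.9% of granulosa cells, at median depths of 9978 and 10043.5 UMIs. It was held by 47.2% and 29% of germ cells, at the greater depths of 77518 and 46191. Of interstitial cells 0.842% and 0.914% held a UMI, at the lower depths of 6370 and 4742. In granulosa cells Cox7a1 was a minor form. Beside Cox7a2 and Cox7a2l it made up 3.43% and 3.11% of the 3 there. With the Upk3b gate given precedence, mesothelial cells held 19.7 and 21.8.

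The opposite pattern was that of Ndufa4l2 (chr10:127514967-127517154), a relative of Ndufa4 known as a hypoxia-induced gene. It had 41.1 and 25.2 CPM in interstitial cells, 4.61 and 5 in germ cells, 0.379 and 1.87 in granulosa cells and none in the mesothelial sums (edgeR adjusted p = 4.63e-05 in interstitial cells). Interstitial cells with at least 2 UMIs of the perivascular markers Rgs5, Notch3, Kcnj8 and Abcc9, 63 of 1188 and 85 of 1969 cells, held 96.9% and 94.5% of these UMIs. In them the level was 812 and 413, and in the other interstitial cells 1.35 and 1.46. The same cells held 74% and 67.2% of the interstitial UMIs of Cox4i2, with 338 and 195 CPM against 6.14 and 5.83 in the rest, where the level was no longer above that of granulosa cells of replicate 2. Their Cox4i1 level was close to that of the rest, at 1520 and 1614 against 1248 and 1396. Cells past the Col1a2 and Dcn gate with perivascular markers thus accounted for most of both genes in that type.

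Promoter windows from RefSeq (GRCm38.p6, 250 bases before to 50 after a gene's start) were at hand for 66 of the 83 nuclear symbols, in 71 windows. They were searched on both strands for GCGCANGCG (NRF1), CCGGAAG (ETS factors such as GABPA) and AAGATGGCG (YY1), factors known for their sites in respiratory chain promoters. The 3 motifs occurred in 29.6%, 22.5% and 9.86% of the member windows. They occurred in 12.1%, 15.9% and 2.67% of the 14362 windows of genes tested and in 6.25%, 8.86% and 1.4% of all 32851 windows. At least 1 of the 3 was found in 29 of the 52 windows of members higher in germ cells and in 7 of the 19 windows of the other members. Some genes have more than 1 window, and a match is only a match of letters.

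The windows of 3 general subunits and of 3 restricted forms are shown as examples of windows with and without these letters, with motif matches in capitals and the 5′ end first. The general ones are Uqcr11 at chr10:80406772-80407071 (minus strand), which holds an ETS match and an NRF1 match that spans the start, Ndufa9 at chr6:126849095-126849394 (minus strand), which holds a YY1 match downstream of the start of transcription, and Cox6b1 at chr7:30626065-30626364 (minus strand), which holds an ETS match read on the other strand. The restricted ones are Cox6b2 at chr7:4753045-4753344 (minus strand), Cox7b2 at chr5:71548156-71548455 (minus strand) and Cox7a1 at chr7:30183921-30184220 (plus strand), in whose windows none of the 3 was found. The choice was made after the matches were known and does not stand for a difference between general and restricted forms. The windows of the general forms Cox7b, Cox7a2 and Cox7a2l, and those of Cox5a, Cox5b and Cox7c, held none of the 3 either.
Uqcr11: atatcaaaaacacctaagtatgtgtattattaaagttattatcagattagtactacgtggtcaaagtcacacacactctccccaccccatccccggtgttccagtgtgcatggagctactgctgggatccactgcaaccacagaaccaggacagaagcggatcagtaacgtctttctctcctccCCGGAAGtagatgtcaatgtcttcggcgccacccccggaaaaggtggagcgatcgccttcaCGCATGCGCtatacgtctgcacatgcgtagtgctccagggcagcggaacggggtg
Ndufa9: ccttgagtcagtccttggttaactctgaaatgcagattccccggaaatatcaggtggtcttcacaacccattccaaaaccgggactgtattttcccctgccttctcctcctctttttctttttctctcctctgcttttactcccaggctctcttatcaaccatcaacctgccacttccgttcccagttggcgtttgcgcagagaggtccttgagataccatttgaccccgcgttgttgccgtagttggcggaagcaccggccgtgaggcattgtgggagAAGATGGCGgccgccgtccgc
Cox6b1: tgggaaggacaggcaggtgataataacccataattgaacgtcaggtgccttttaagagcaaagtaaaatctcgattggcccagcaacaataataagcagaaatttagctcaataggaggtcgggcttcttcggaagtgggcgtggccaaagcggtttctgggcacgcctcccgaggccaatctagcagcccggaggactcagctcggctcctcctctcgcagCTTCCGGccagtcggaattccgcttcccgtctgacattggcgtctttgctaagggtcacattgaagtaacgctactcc
Cox6b2: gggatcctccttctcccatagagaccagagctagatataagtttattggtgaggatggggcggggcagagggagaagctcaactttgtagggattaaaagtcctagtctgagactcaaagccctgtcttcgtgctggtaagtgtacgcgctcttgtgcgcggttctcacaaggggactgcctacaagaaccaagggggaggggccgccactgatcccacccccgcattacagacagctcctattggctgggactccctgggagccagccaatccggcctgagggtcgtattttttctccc
Cox7b2: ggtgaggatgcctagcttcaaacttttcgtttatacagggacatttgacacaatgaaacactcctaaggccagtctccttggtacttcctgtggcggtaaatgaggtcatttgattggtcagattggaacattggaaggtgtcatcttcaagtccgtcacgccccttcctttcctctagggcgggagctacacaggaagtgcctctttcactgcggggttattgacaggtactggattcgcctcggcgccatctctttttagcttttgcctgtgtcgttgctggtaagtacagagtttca
Cox7a1: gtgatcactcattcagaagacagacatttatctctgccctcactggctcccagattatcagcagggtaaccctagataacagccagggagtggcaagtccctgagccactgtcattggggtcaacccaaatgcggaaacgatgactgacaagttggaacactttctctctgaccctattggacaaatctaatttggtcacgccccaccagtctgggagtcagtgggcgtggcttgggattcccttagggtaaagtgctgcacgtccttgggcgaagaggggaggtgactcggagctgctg

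Most of the members called higher in granulosa cells were mtDNA genes. Of the 13, 10 were higher in granulosa cells than in the mean of the other types and none was lower, against 22.4% of all genes called higher. Of the 82 nuclear members tested, 3 were higher and 18 lower, with 8.8% of all genes called lower. By DESeq2 13 members were higher and 37 lower, and by library size alone 14 and 23. The mean of the other types includes germ cells, where the nuclear sums were highest. Against interstitial cells alone, 12 of the 82 nuclear members were higher and 4 lower, with 21% and 19.4% of all genes called. Against mesothelial cells alone, 1 was higher and 2 lower, with 1.83% and 1.52% of all genes called. Of the 13 mtDNA genes, 11 were higher than in interstitial cells. None was called against mesothelial cells, and with the Upk3b gate given precedence 1 was higher. The higher mtDNA level was thus largely shared with mesothelial cells.

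mt-Co1, the catalytic subunit of complex IV, differed most. Its level was 7486 and 8864 CPM in granulosa cells, 6114 and 6033 in mesothelial cells, 3152 and 3209 in germ cells and 2416 and 2699 in interstitial cells. The log2 difference was 1.15 in granulosa cells (edgeR adjusted p = 7.94e-06), -0.56 in germ cells (edgeR adjusted p = 0.000969) and -1.03 in interstitial cells (edgeR adjusted p = 3.21e-05). mt-Co1 was 17.3% and 18% of all mtDNA UMIs in granulosa cells and 10.1% and 10.8% in interstitial cells. The other catalytic-core genes of the complex moved less, with granulosa differences of 0.60 for both mt-Co2 and mt-Co3.

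Of the 7 complex I genes of mtDNA, 4 were lower in germ cells. mt-Nd1, which forms part of the quinone channel, had 1833 and 1748 CPM in germ cells, 4967 and 4375 in granulosa, 3566 and 2912 in interstitial and 4942 and 3652 in mesothelial cells. The 2 germ libraries were below all others, and the difference was -1.07 (edgeR adjusted p = 3.20e-05). mt-Nd5, a proton-pumping subunit, was lower by 0.97 in log2 terms at 79.6 and 83.4 against 113 to 278 (edgeR adjusted p = 0.000354), and mt-Nd2 by 0.35 (edgeR adjusted p = 0.0341). mt-Nd6, the one message of the light strand, had at most 17.9 CPM in any sum and was lower in germ cells (edgeR adjusted p = 0.0151). The calls of mt-Nd2 and mt-Nd6 were lost at the 5% mitochondrial limit.

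mt-Nd3 had 244 and 181 CPM in germ cells, 420 and 383 in granulosa, 246 and 189 in interstitial and 278 and 249 in mesothelial cells. mt-Nd4 had 1625 and 1663 in germ, 2397 and 2799 in granulosa, 1408 and 1522 in interstitial and 2014 and 2179 in mesothelial cells. Both were higher in granulosa cells, by log2 differences of 0.80 and 0.59 (edgeR adjusted p = 0.00153 and 0.00214), and neither was called in germ cells.

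Apart from mt-Co1 and the 4 complex I genes called lower, the mtDNA genes had log2 differences in germ cells between -0.41 and 0.16. mt-Co3 was the one of them called, at -0.41 (edgeR adjusted p = 0.00606). mt-Atp6, a channel subunit of complex V, had 6616 and 7072 in germ cells, 5224 and 5546 in interstitial, 8704 and 10462 in granulosa and 8854 and 9207 in mesothelial cells. It made up 25.9% and 26.7% of mtDNA UMIs in germ cells and 20.1% to 23.3% in the other types. mt-Cytb, the mtDNA gene of complex III, had 11.9% and 12.2% of mtDNA UMIs in germ cells against 9.35% to 11.4%, and mt-Nd1 had 7.18% and 6.59% against 8.91% to 15%. The proportions among the 13 thus differed between the types and not only their total. mt-Nd3, mt-Nd4, mt-Nd4l, mt-Co2, mt-Cytb, mt-Atp6 and mt-Atp8 were not called in germ cells. mt-Nd4l and mt-Nd4, and mt-Atp8 and mt-Atp6, overlap in the annotation and share a messenger, so that the low counts of mt-Nd4l (17.9 to 49.3 CPM) and mt-Atp8 (16.2 to 37.8) cannot be set apart from those of their partners.

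**Figure D4:**
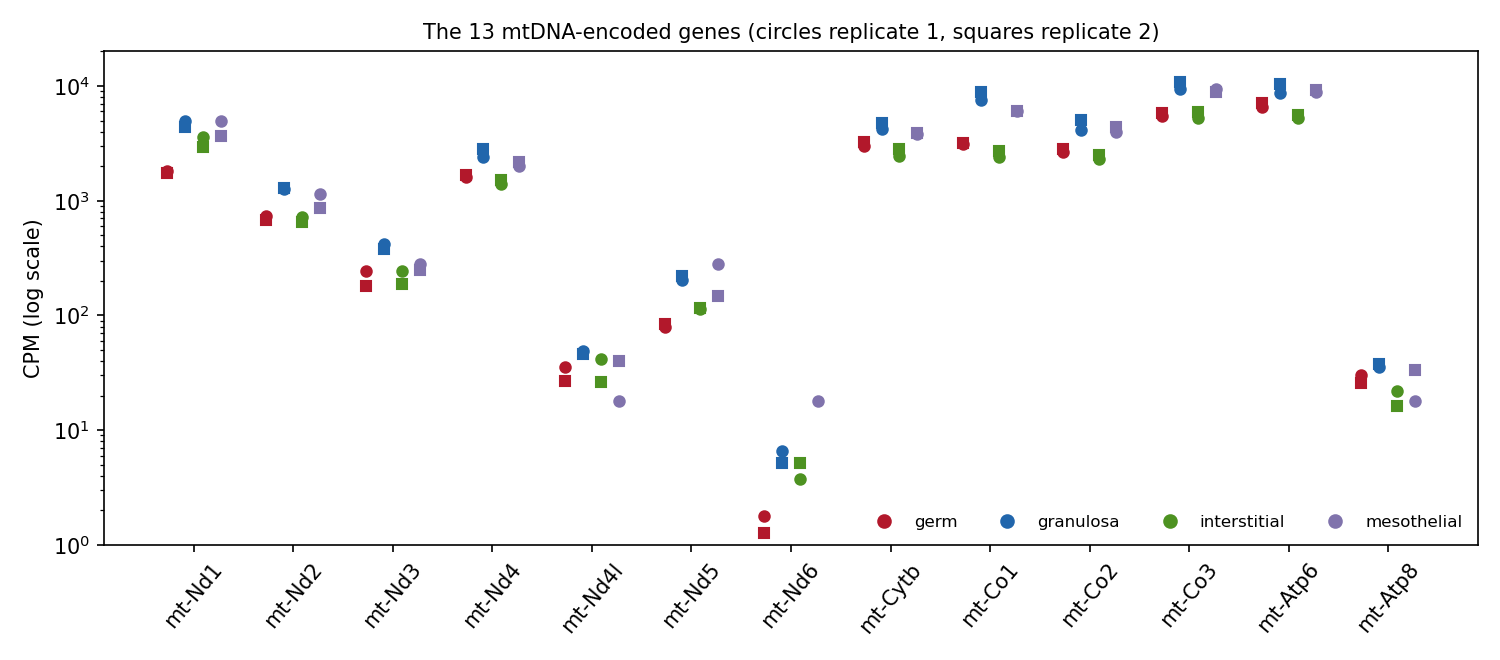
CPM (log axis) of the 13 mtDNA-encoded genes in each gated cell type; circles are replicate 1 and squares replicate 2, and mt-Nd6 had 0 UMIs in mesothelial cells of replicate 2 and is not drawn there. Germ cells are lowest for mt-Nd1 and mt-Nd5, and granulosa cells are highest for mt-Co1.

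Interstitial cells were low for both genomes. Of the 95 members tested 41 were lower, 34 nuclear and 7 of mtDNA, and 2 were higher. This was 43.2% lower, against 12.1% of all genes called lower and 23.5% called higher. Complex IV had 13 of 17 nuclear genes lower, complex I 13 of 37, complex V 5 of 16 and complex III 3 of 8. The lowest by complex, beside Uqcr11, were Ndufa4 with a log2 difference of -1.18 (edgeR adjusted p = 6.82e-05), at 613 and 571 CPM, and Atp5g2 with -0.84 (edgeR adjusted p = 0.000343), at 512 and 523. Cox6a2 was listed at 0 in both sums. Compared with interstitial cells directly, granulosa cells had 12 of 82 nuclear members higher and 4 lower, with 21% and 19.4% of all genes called, and 11 of the 13 mtDNA genes higher. Mesothelial cells had 8 nuclear and 4 mtDNA members higher than interstitial cells and none lower, with 3.85% and 4.3% of all genes called. With the Upk3b gate given precedence these were 28 nuclear and 9 mtDNA members higher and 4 lower, with 17.7% and 18.6% of all genes called. Granulosa cells had 1 member higher and 2 lower than mesothelial cells, with 1.83% and 1.52% of all genes called, and with that precedence 5 higher and 6 lower, with 11.4% and 10.9%.

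Beside Cox7a1, Cox6b2 and Atp5g3, other nuclear members were called in granulosa cells. Ndufs4, a late-added accessory subunit of complex I, was higher by 0.51 (edgeR adjusted p = 0.012), at 261 and 259 CPM against 171 and 164 in interstitial, 240 and 249 in germ and 134 and 155 in mesothelial cells. Uqcrc1, a core protein of complex III, was lower by 0.43 on the log2 scale (edgeR adjusted p = 0.0472), and Atp5f1, a subunit of the stator of complex V, also by 0.43 (edgeR adjusted p = 0.0243). The call of each of these 3 was lost under at least 2 alternatives. Cox8c was lower there too, at 7 and 1 UMIs.

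In mesothelial cells 2 members were higher and 13 lower, with 4.35% and 2.28% of all genes called. Of the lower, 12 were complex I genes, although the median log2 difference of the 37 nuclear complex I genes, -0.44, was not below the -0.51 of all genes. With the replicate as a block the counts were 5 and 17, by library size alone 8 and 6, by DESeq2 6 and 10, and with the Upk3b gate given precedence 17 and 21, where 22.5% of the 15051 genes tested were higher and 20.7% lower. Ndufa4 was the member that stood out. It had 2498 and 2065 CPM in mesothelial cells, 1501 and 1577 in germ, 665 and 859 in granulosa and 613 and 571 in interstitial cells. The log2 difference was 1.23 (edgeR adjusted p = 0.000321), and with the Upk3b gate given precedence the levels were 2305 and 2213 and the difference 1.37. mt-Co1 was higher by 0.45 (edgeR adjusted p = 0.0319), a call lost at the 5% limit, under stricter gates and in cells thinned to 2000 UMIs. Ndufb5, an accessory subunit of complex I, was lower, with a difference of -0.97 (edgeR adjusted p = 0.0105) at 224 and 296. Atp5f1 had -0.59 (edgeR adjusted p = 0.0423) and lost its call under 7 of 12 alternatives. Summed endothelial markers stood at 251 and 236 CPM in these 27 cells, against at most 33.9 in the other types. These were 28 and 35 UMIs, with 2 of the 4 markers at 0 in each library, and their part was not tested.

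The mitochondrial share per cell is itself made of the 13 mtDNA genes, so the filter acted on the members. With no limit, the median share was 2.54% and 2.3% in germ cells, 4.19% and 4.77% in granulosa, 2.32% and 2.43% in interstitial and 4.43% and 3.57% in mesothelial cells. The limit of 10% removed 15 and 12 germ, 76 and 13 granulosa, 28 and 19 interstitial and 1 and 0 mesothelial cells. A limit of 5% would have removed 19.9% and 39.5% of the granulosa cells kept at 10%, against 1.6% and 1.78% of the interstitial cells. The nuclear share did not follow the mitochondrial one, with medians of 5.05% and 4.98% in germ cells and 3% and 3.13% in granulosa cells.

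**Figure D5:**
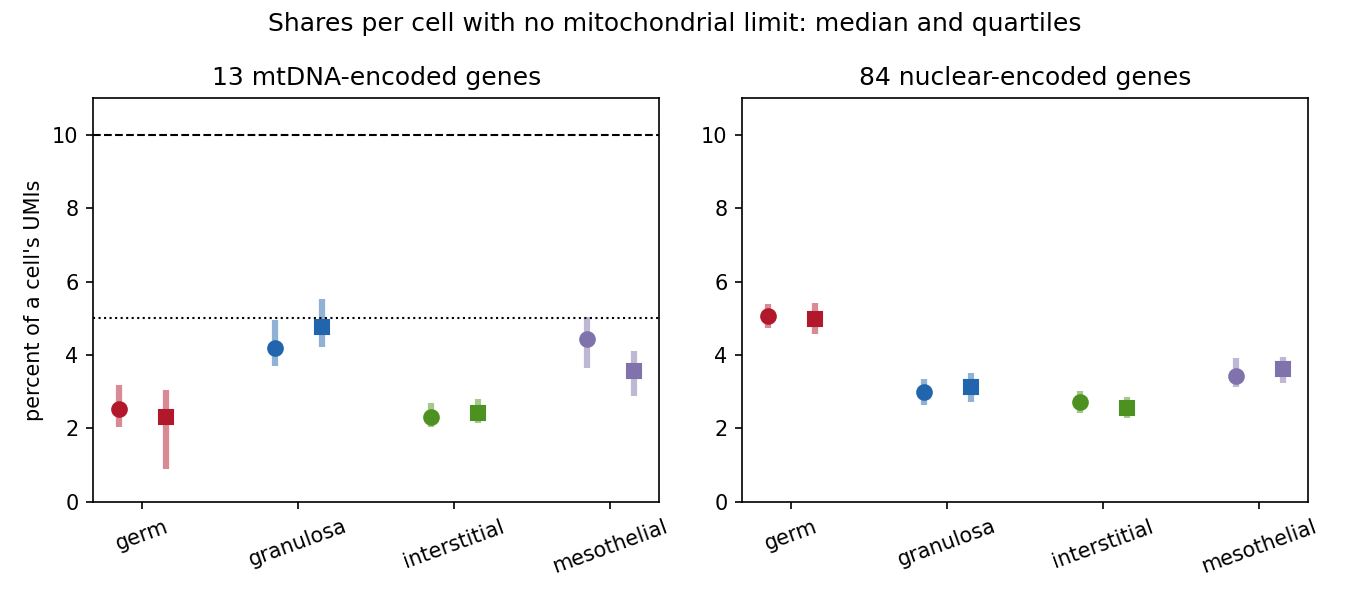
Share of a cell's UMIs from the 13 mtDNA-encoded genes (left) and the 84 nuclear-encoded genes (right), by cell type, with no mitochondrial limit. Symbols are medians over cells (circles replicate 1, squares replicate 2), bars the quartiles, and the dashed and dotted lines limits of 10% and 5%; the upper quartiles of granulosa cells are 4.94% and 5.53%.

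By summed UMIs, germ cells with little RNA had a lower mtDNA share than the others in replicate 2, and in replicate 1 the sums were close. The median such cell held few mtDNA UMIs in both libraries. In replicates 1 and 2 it had 9 and 17, beside 120 and 105 nuclear UMIs. In replicate 2, 193 of 575 germ cells had under 10000 UMIs, and their mtDNA genes summed to 8077 CPM, against 26981 in the other germ cells, while the nuclear genes summed to 47757 against 51288. In replicate 1 there were 20 such cells of 229, with mtDNA sums of 23829 against 25524 and nuclear sums of 58023 against 50677. These cells held 2.46% and 0.377% of the germ UMIs of replicates 2 and 1, so that the summed germ levels above were set by the larger cells.

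Genes that act with the chain were counted in the same test. Of 14 factors of complex I assembly tested, 11 were higher in germ cells and none was lower. Ndufaf4 led with 303 and 314 CPM against 17.9 to 41.9 elsewhere, a log2 difference of 3.26 (edgeR adjusted p = 7.15e-09). Of 32 assembly factors of complexes II to V tested, 22 were higher and the 3 named Cox20, Sdhaf1 and Cox19 were lower. Cox20, which acts in the assembly of complex IV, had 20.2 and 27.5 CPM in germ cells against 60.5 to 143 elsewhere, a log2 difference of -2.14 (edgeR adjusted p = 5.01e-06). Of 17 genes that copy, transcribe or stabilise mtDNA and its RNA, 10 were higher in germ cells and none was lower. Among these, the polymerase Polrmt had a difference of 1.93 (edgeR adjusted p = 4.16e-05), the packaging factor Tfam 1.15 (edgeR adjusted p = 3.52e-05) and the helicase Twnk 1.05 (edgeR adjusted p = 0.00297). These shares stand beside the 39% of all genes called higher. Some genes counted as higher had a mesothelial sum at 0, so their fitted differences rest in part on it. Tmem126b, for example, had 28.5 and 30.4 CPM in germ, 25.1 and 27.9 in interstitial and 8.95 and 0 in mesothelial cells. In the other types at most 4 genes of any of these 3 lists were higher and at most 6 lower.

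Of 7 carriers and subunits outside the symbol rule, 5 were higher in germ cells and 2 lower, and the electron carrier cytochrome c differed by form. Cyct, the testis form, had 30 and 28.3 CPM in germ cells, 0.0542 and 0.144 in granulosa, 0.467 and 1.2 in interstitial and no UMI in mesothelial cells, where 3 UMIs would be 26.9 and 20.2 (edgeR adjusted p = 1.04e-07 in germ cells). Cycs, the somatic form, was lower in germ cells by 0.59 on the log2 scale (edgeR adjusted p = 0.0339), at 140 and 133 against 143 to 313, yet it was still the more abundant form there. Atpif1, the inhibitor of ATP synthase, had 307 and 302 in germ cells, 832 and 955 in granulosa, 617 and 577 in interstitial and 1289 and 1190 in mesothelial cells. It was lower in germ cells, with a log2 difference of -1.42 (edgeR adjusted p = 1.97e-06), and higher in mesothelial cells, with 1.05 (edgeR adjusted p = 0.000516). Of the 8 nuclear regulators tested, 3 were higher in germ cells and 1 lower, close to the 39% of all genes called higher. Nrf1, Gabpb1 and Pprc1 were the higher ones, with differences of 1.80, 1.92 and 0.89, and Yy1 was lower, with -0.39 (edgeR adjusted p = 1.46e-06, 2.91e-06, 0.0473 and 0.0301). For Pprc1 the levels were 15.7 and 12.2 CPM in germ, 12.3 and 10.5 in granulosa and 11.4 and 11.6 in interstitial cells. Its germ and granulosa libraries thus overlapped, and its mesothelial sums were at 0 and 6.73. Ppargc1a, a coactivator of mitochondrial gene expression, was called higher in granulosa cells (edgeR adjusted p = 0.0191) at levels of 2.27 and 1.44.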

How the data were processed

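The deposited matrices held raw UMI counts per gene and cell, made by the authors with Cell Ranger 3.0.2 against GRCm38 per the labels, 1 matrix per library. Cell Ranger leaves out reads that match several genes, so members with near-identical copies may be undercounted, and Ndufb9, Ndufb8, Ndufb2, Cox4i1, Ndufa13 and Atp5o overlap another listed gene on their strand. Doublets were scored with Scrublet in scanpy 1.11.5 at an expected rate of 0.05; the automatic threshold of replicate 1, 0.225, was used in both libraries (0.521 in replicate 2 by itself), which marked 96 and 93 cells. Cells past no gate (129 and 207) or several gates (548 and 1076) were left out. Counts were summed per library and cell type, which gave 8 sums of 111703 to 23021411 UMIs, and tested with edgeR 4.0.16 (filterByExpr, TMM, glmQLFit, glmQLFTest) in 1 fit in R 4.3.3, each type against the mean of the other 3 on the log2 scale, with Benjamini-Hochberg adjustment over all genes and calls at 0.05. DESeq2 1.42.0 was an alternative. In counts simulated from these sums, changes of 4-fold were recovered for 75.8% of 66 genes in the germ comparison on 13999 genes. In the mesothelial one, on 14017 genes, they were recovered for 21.2% of 66. Changes of 2-fold were recovered for 40.3% and 1.49% of 67 genes, and changes of 1.5-fold for 10.4% and 0% of 67. The changed genes were drawn from all genes tested, at any level, so these rates need not be those of the members. Among the members, mt-Nd2 was called in germ cells at a log2 difference of -0.35. A member not called may still differ. In the simulated counts of these 2 comparisons 10.6% and 0% of all calls were false. Only the drawn genes were changed there, while in the real germ comparison 39% of all genes were called higher and 24.5% lower. The false shares of the simulation therefore need not be those of the real calls. Sums with the same replicate number come from the same library and pups; their deviations correlated at 0.0381 to 0.25 over 14849 genes. CPM values are relative to all UMIs of that type and library. The mtDNA genes in the files were the 13 members. Coordinates are those of GENCODE M21. Named with values were all mtDNA genes, the isoform groups, the complex II genes and, per comparison and complex, the nuclear member called with the largest difference in each direction; Ndufb11, Atp5j and the genes of the lists on assembly, mtDNA upkeep, carriers and regulators named in the text were chosen after their values were seen. The members and lists were chosen with earlier results of these data known.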

Additional observations from a re-analysis of the deposited data

How the results depend on the processing

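Counts of members called moved by more than 1.5 times under some settings. Those lower in germ cells, 8, became 15 by library size alone, 13 with the replicate block, 15 with no mitochondrial filter and 13 with Upk3b precedence. In granulosa cells the 13 higher, 10 of them mtDNA genes, became 4 with the mtDNA genes left out. The 18 lower there became 37 by DESeq2, 11 at the 5% limit, 5 after thinning to 2000 UMIs and 39 with Upk3b precedence. In interstitial cells the 2 higher became 1 at the 5% limit and 4 after thinning, and the 41 lower became 15 after thinning. In mesothelial cells the 2 higher became 8 by library size alone, 6 by DESeq2, 5 with the replicate block, 1 at the 5% limit, 4 with stricter gates, 8 with cells past several gates assigned, 1 after thinning and 17 with Upk3b precedence, and the 13 lower became 6 by library size alone, 21 with no low-count filter, 4 at the 5% limit, 21 with cells past several gates assigned, 7 after thinning and 21 with Upk3b precedence. The 64 members higher in germ cells ranged from 54 after thinning to 66. Leaving out the mtDNA genes removes called members by itself. The cause of the other moves was not tested, except that the 5% limit takes out granulosa cells and thinning leaves fewer counts. DESeq2 shifted the median of all genes by -0.215 in the germ and 0.545 in the mesothelial comparison.

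Summed levels moved by more than 1 SD of 2 libraries in these cases. The nuclear genes were at 52314 (germ), 32767 (granulosa) and 36575 (mesothelial) with nuclear-gene UMIs as the denominator, at 50299 (germ) and 35965 (mesothelial) with every cell weighing the same, and in mesothelial cells at 36008 at the 5% limit and 35467 with Upk3b precedence. The mtDNA genes were at 27690 (germ), 25343 (interstitial) and 41072 (mesothelial) with no mitochondrial filter, at 23684 (germ) and 37303 (mesothelial) with every cell weighing the same, and at 41399 (granulosa) and 35326 (mesothelial) at the 5% limit. In mesothelial cells they were at 37324 with stricter gates, 38183 with cells past several gates assigned, 38742 with Upk3b precedence and 41887 with the nuclear denominator. The order of the types held in each of these, except that with every cell weighing the same the mtDNA sum of germ cells lay below that of interstitial cells (25032).

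Of 75 named differences that were called, 51 were called under every alternative fitted, 21 were lost after thinning and 12 at the 5% limit. The difference of mt-Co1 in mesothelial cells turned to -0.10 after thinning. With 1 library left out no spread between samples remained, so no test was made. The called members lay on the same side in each library alone, which their calling from these same libraries made likely beforehand. The mesothelial sums, of 111703 and 148684 UMIs, limit what could be detected there. Summed levels under other gates are given above as descriptions, without a test. The counts of calls under other gates and after thinning come from the same edgeR test on those sums. No value bears on whether dissociation moved a level.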
